A study of Mus musculus with 6 samples.

Results

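The phosphoinositide 3-kinase (PI3K), AKT, mTOR and FOXO components examined here were 36 mouse genes, chosen by name as core enzymes, subunits and regulators of that signaling route. All 36 were found among the 15454 genes of the deposited count table, and all 36 passed the filter on low counts. They were read as 31 genes used by most cell types and 5 isoforms or adaptors known mainly from blood cells, Pik3cd, Pik3cg, Pik3r5, Pik3ap1 and Inpp5d. RNA-seq had been carried out on livers of male wild-type C57BL/6 mice aged 8 to 10 weeks after warm ischemia and reperfusion of 75% of the organ. The I/R group (n = 3) received vehicle. The I/R+Rk2 group (n = 3) received ginsenoside Rk2, a saponin of ginseng, in that vehicle, per the paper at the higher of its mouse doses. Both were dosed 2 days before surgery and again when blood flow returned. Every liver was therefore injured, and no uninjured liver was analysed here. Whole liver was sequenced, so each value mixes hepatocytes with every other cell of the tissue. The study asked whether Rk2 acts through AKT.

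Growth factor and chemokine receptors recruit class I PI3K, which makes the membrane lipid PIP3. PIP3 brings the kinases PDK1 and AKT to the membrane, where PDK1 and mTOR complex 2 phosphorylate AKT, and inositol phosphatases such as SHIP1 and SHIP2 remove the lipid again. Active AKT phosphorylates the FOXO transcription factors, the GSK3 kinases and the TSC complex, whose inhibition frees RHEB to switch on mTOR complex 1. In liver this route carries the insulin signal and survival signals after ischemia. Most of this control is exerted by phosphorylation and by movement of proteins within the cell, which RNA levels do not measure.

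The 6 libraries held 16809613 to 35618074 counts. Levels are given as counts per 1000000 (CPM), scaled by the TMM method. Genes are compared with each other as FPKM, fragments per kilobase of transcript and 1000000 fragments, or on CPM where this is stated. A log2 fold change below 0 means a lower level in I/R+Rk2. Means over the 3 libraries of a group are given ± SD and log2 fold changes ± standard error (SE). A gene was called when the Benjamini-Hochberg adjusted p of edgeR's quasi-likelihood test, fitted to 12411 genes, was below 0.05. The median log2 fold change of all tested genes was -0.01. Hepatocyte markers were abundant in every library, with a summed level of 80401 to 91520.1 CPM in I/R and 112385 to 137105 in I/R+Rk2, and 8 of 12 rose while the fibrinogen gene Fgb fell. The labels do not say in words that each sample is a separate mouse, so p-values cover the spread between these 3 samples a group.

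Of the 36 members, 6 rose and 12 fell in I/R+Rk2. Across all tested genes 43.9% were called, 20.3% as higher and 23.7% as lower, so the members' 18 of 36 lay close to the background. The median log2 fold change of the members was -0.21. The falls of the 5 leukocyte isoforms had a median of -2.30, whereas 13 of the 31 other members were called (41.9%) with a median of -0.14, 6 of them higher and 7 lower. A change of over 2-fold past the threshold was seen in 6 members, all lower, against 14.6% of all genes in either direction and 11.4% as lower. These 6 were the 5 leukocyte isoforms and Pik3ca. The 2 groups did not overlap in CPM for 23 of 36 members, against 57.4% of all genes. The rises depended on scaling. Scaled by library size only, 2 members were higher and 15 lower, while limma fits of log2(FPKM + 1) called 1 higher and 11 lower. With the trend of fold change on transcript length removed, 10 were higher and 9 lower. Of the 18 members not past the threshold, 10 changed sign under some alternative, so only values are given for them.

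**Figure D1:**
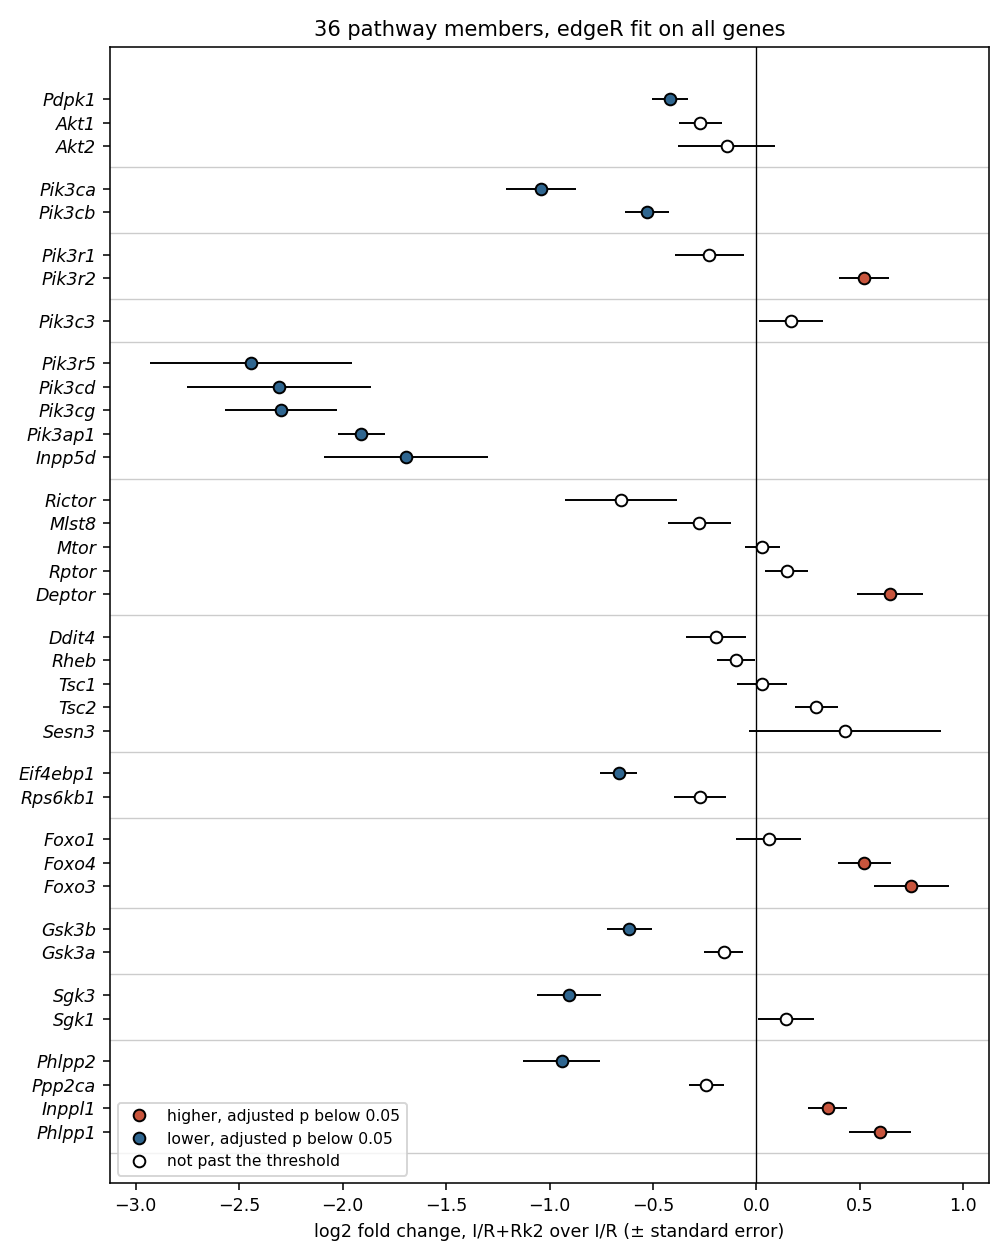
Log2 fold change of I/R+Rk2 over I/R (horizontal axis, bars are the standard error of the edgeR fit) for the 36 members, grouped by role and separated by grey lines. The leukocyte isoforms lie between -2.44 and -1.69, and the other 31 lie between -1.04 and 0.75; open circles mark the 18 members not past the threshold.

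The leukocyte isoforms all fell, each by more than any other member. Pik3cd encodes the p110 delta catalytic subunit of class I PI3K. Its level was 7.30, 6.28 and 8.09 CPM in the 3 I/R livers and 2.69, 0.858 and 0.798 CPM in the 3 I/R+Rk2 livers. All I/R values lay above all I/R+Rk2 values, and I/R+Rk2 replicate 1 was the highest of its group. The level was 4.95-fold lower (log2 fold change -2.31 ± 0.44 (SE), edgeR adjusted p = 0.00614). Pik3cg encodes p110 gamma, the catalytic subunit driven by G protein-coupled chemokine receptors. Its level was 2.19, 2.81 and 2.95 CPM in the 3 I/R livers and 0.630, 0.444 and 0.552 CPM in the 3 I/R+Rk2 livers, and the groups did not overlap. Its log2 fold change was -2.30 ± 0.27 (SE), edgeR adjusted p = 0.00112. It was the lowest of the 36 members per length in both groups, with 9 to 15 counts in each I/R+Rk2 library. Pik3r5, the p101 regulatory partner of p110 gamma, had a level of 5.32, 6.40 and 8.57 CPM in the 3 I/R livers and 2.27, 0.947 and 0.430 CPM in the 3 I/R+Rk2 livers. Its I/R+Rk2 values spread widely, with replicate 3 at 7 counts, but stayed below the I/R values (log2 fold change -2.44 ± 0.49 (SE), edgeR adjusted p = 0.00719).

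Pik3ap1 encodes BCAP, an adaptor that links B cell and Toll-like receptors to PI3K. Its level was 125, 133 and 122 CPM in the 3 I/R livers and 38.6, 32.9 and 29.6 CPM in the 3 I/R+Rk2 livers. The libraries of a group lay close together and far from the other group, and the p was the smallest of all members (log2 fold change -1.91 ± 0.11 (SE), edgeR adjusted p = 0.000240). Inpp5d encodes SHIP1, the blood cell phosphatase that removes the 5-phosphate of PIP3. It was measured at 12.2, 8.58 and 13.5 CPM in the 3 I/R livers and 5.04, 3.88 and 1.41 CPM in the 3 I/R+Rk2 livers. The groups did not overlap, and I/R+Rk2 replicate 3 was lowest (log2 fold change -1.69 ± 0.39 (SE), edgeR adjusted p = 0.0127). Each of the 5 calls held in all 6 fits that left out 1 library, with log2 fold changes from -3.20 to -1.35. The 5 lay at 152 to 157 CPM in sum in I/R and at 32.8 to 49.2 in I/R+Rk2.

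**Figure D2:**
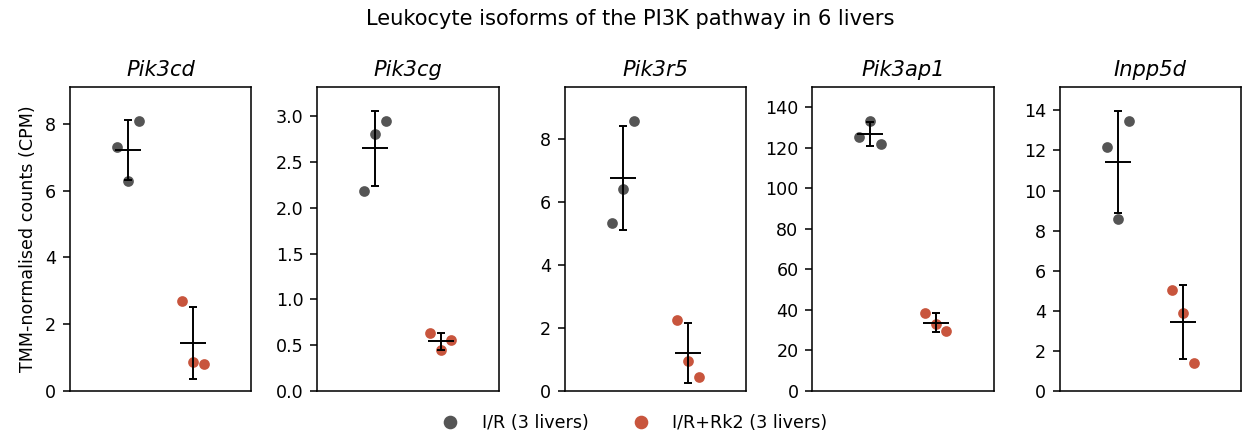
TMM-normalised counts (CPM, each panel with its own axis from 0) of the 5 leukocyte isoforms in the 3 I/R and 3 I/R+Rk2 livers; points are libraries, and bars give the mean and SD. In each panel the 3 I/R+Rk2 points sit below the 3 I/R points, as for Pik3ap1 at 29.6 to 38.6 against 122 to 133 CPM.

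Most leukocyte, monocyte and neutrophil markers fell along with these 5 genes. Of 15 genes found across leukocytes, 14 fell, all but Dock2 (median log2 fold change of the 15, -1.94), and their summed level was 367 to 471 CPM in I/R and 113 to 194 in I/R+Rk2. Lcp1, an actin-bundling protein of leukocytes, and the tetraspanin Cd53 fell by 0.96 and 2.53 on the log2 scale. All 10 monocyte markers fell with a median of -3.99, including Lyz2 (-1.86 ± 0.18, adjusted p = 0.000588), at a summed 1744 to 2095 CPM in I/R and 1171 to 1231 in I/R+Rk2. From 80.0% to 95.8% of that sum was Fn1, fibronectin, which hepatocytes also make and which fell less (-0.49 ± 0.11, adjusted p = 0.0116). Without Fn1 the other 9 summed to 335 to 419.6 CPM in I/R and 51.4 to 72.6 in I/R+Rk2. Of 11 neutrophil markers 9 fell, all but Ngp and Retnlg, with a list median of -2.04, including S100a9 (-2.04 ± 0.26, adjusted p = 0.00146), at a summed 527 to 647 CPM in I/R and 97.7 to 228 in I/R+Rk2. Of 10 Kupffer cell markers only Cd5l fell (-0.97 ± 0.22, adjusted p = 0.0114), and the list's median was -0.46 at a summed 92.1 to 144 CPM in I/R and 75.8 to 92.7 in I/R+Rk2. T and NK cell markers were near the detection limit, with 1 of 8 measured genes passing the filter and a summed 1.09 to 1.91 CPM in I/R and 1.17 to 3.91 in I/R+Rk2. None of 5 measured B cell markers passed it, at 0.261 to 0.956 CPM in I/R and 0.982 to 1.26 in I/R+Rk2. Nkg7 and Pax5 were at 0 in every I/R library. In bulk liver, fewer cells of a type and less RNA per cell cannot be told apart.

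The size of the isoforms' fall was set against that of the leukocyte list. The mean log2(CPM + 1) of the 15 leukocyte genes was lower by 1.67 in I/R+Rk2. Relative to that mean, Pik3cd differed by -0.15 between the groups, Pik3r5 by -0.20, Pik3ap1 by -0.22, Inpp5d by 0.11 and Pik3cg by 0.43. Exact two-sided permutation p-values for these were 0.2 to 0.8, where 3 against 3 libraries cannot go below 0.1. The added 1 weakens the falls of genes near 1 CPM, so the signs of these differences depend on the scale. Beside the list's median edgeR log2 fold change of -1.94, Pik3cd was at -2.31, Pik3r5 at -2.44 and Pik3cg at -2.30. On that scale Pik3ap1 was at -1.91 and Inpp5d at -1.69. The part of leukocyte content in the isoforms' fall was not otherwise tested. Pik3ap1 stood out by level. At 48.1 ± 3.42 FPKM in I/R and 11.5 ± 1.91 in I/R+Rk2 it was the highest of all 36 members in I/R and the tenth in I/R+Rk2. It lay above 13 of the 15 leukocyte markers in both groups. Ptprc, the common leukocyte antigen CD45, named here after its value was seen, was at 5.13 ± 2.26 FPKM in I/R. The other 4 isoforms had mean levels of 0.594 to 3.55 FPKM in I/R. The files do not show which cells of the liver carried the Pik3ap1 transcripts.

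Promoters of the leukocyte isoforms are shown because their transcripts fell together. Promoter sequences of RefSeq (GRCm38.p6), covering 250 bases before each start, matched 31 of the 36 members. They were searched on both strands for GAGGAA, a core bound by PU.1, the transcription factor of myeloid and B cells. It was present in 3 of the 5 leukocyte genes, Pik3ap1, Inpp5d and Pik3cg, and in 5 of the 26 other matched members, while 25.9% of all genes in that table held it. No match was found in the windows of Pik3cd and Pik3r5, which says only that these letters are absent there. Printed 5′ to 3′ on the strand of the gene, with GAGGAA or its reverse complement in capitals, the first base of the match lies 11 bases before the start of Pik3ap1 (chr19:41385103-41385352, minus strand) and 20 bases before that of Inpp5d (chr1:87620062-87620311, plus strand). For Pik3cg, 30-base windows around matches 189 and 152 bases before 1 of its starts are shown (chr12:32208642-32208671 and chr12:32208605-32208634, minus strand).
Pik3ap1: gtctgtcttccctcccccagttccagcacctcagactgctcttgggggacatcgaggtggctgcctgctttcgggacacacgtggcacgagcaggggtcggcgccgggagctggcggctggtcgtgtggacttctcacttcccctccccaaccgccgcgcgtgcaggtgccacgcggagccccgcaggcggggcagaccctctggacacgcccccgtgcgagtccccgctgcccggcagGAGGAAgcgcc
Inpp5d: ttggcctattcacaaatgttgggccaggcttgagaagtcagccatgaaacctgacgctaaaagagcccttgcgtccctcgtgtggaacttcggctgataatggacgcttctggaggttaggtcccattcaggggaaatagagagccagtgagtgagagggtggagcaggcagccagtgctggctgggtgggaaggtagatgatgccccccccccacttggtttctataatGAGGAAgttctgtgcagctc
Pik3cg, first window: taactgcaacacTTCCTCtgcatctggata
Pik3cg, second window: agccccagaaaaGAGGAAgagacgaggtgc

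The ubiquitous catalytic subunits of class I PI3K also fell. Pik3ca encodes p110 alpha, the subunit that serves insulin and growth factor receptors. Its level was 21.5, 16.5 and 21.7 CPM in the 3 I/R livers and 8.11, 9.62 and 11.3 CPM in the 3 I/R+Rk2 livers. The groups did not overlap, and the level was 2.06-fold lower (log2 fold change -1.04 ± 0.17 (SE), edgeR adjusted p = 0.00329). The fall stayed past the threshold but was under 2-fold with upper-quartile scaling (-0.99, adjusted p = 0.00375). The same held with the transcript length trend removed (-0.70, adjusted p = 0.00818). Pik3cb, which encodes p110 beta, was at 21.2 ± 1.56 CPM in I/R and 14.7 ± 0.906 in I/R+Rk2 (log2 fold change -0.53 ± 0.11, adjusted p = 0.00731). It too showed no overlap of the groups.

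The deposited FPKM values and the counts differed on Pik3ca. Its FPKM values were 2.83, 2.22 and 2.86 in I/R and 1.51, 1.66 and 2.64 in I/R+Rk2, so that I/R+Rk2 replicate 3 lay within the I/R range, and limma on log2(FPKM + 1) gave -0.32, adjusted p = 0.171. The quotient of CPM and FPKM stands for the transcript length, in kilobases up to library scaling, over which the fragments of a gene were spread. For Pik3ca it was 7.60, 7.40 and 7.59 in I/R and 5.37, 5.78 and 4.28 in I/R+Rk2. Beyond the median of 11247 genes, which was 0.16 on the log2 scale, the quotient of Pik3ca differed by -0.72, at the 0.356 percentile of those genes. For 17 of 36 members the quotient lay within 0.05 of that median, and for 7 it lay over 0.2 away. Of these 7, only Pik3ca and Sgk1 had a smaller quotient than the median in I/R+Rk2. Whether transcript isoforms or their assembly differed was not tested.

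Within the 4 class I catalytic subunits, the joint share of Pik3cd and Pik3cg in summed FPKM was 25.7%, 25.6% and 26.9% in the 3 I/R livers against 15.4%, 5.98% and 4.79% in the 3 I/R+Rk2 livers. The I/R values were close together, and I/R+Rk2 replicate 1 lay between its group and I/R. The share was lower by 17.4 percentage points in I/R+Rk2, with an exact two-sided permutation p of 0.1, the smallest that 3 against 3 allow. With CPM in place of FPKM the difference was -11.7 points. The summed FPKM share of Pik3ca was 33.0 ± 1.74% in I/R and 44.3 ± 9.43% in I/R+Rk2, and that of Pik3cb was 40.9 ± 2.44% in I/R and 47.0 ± 6.33% in I/R+Rk2. On CPM, used after the values were seen, Pik3ca's share turned the other way, at 38.9 ± 2.16% in I/R and 36.6 ± 4.72% in I/R+Rk2 (exact permutation p = 0.6), while Pik3cb's mean was 41.7% in I/R against 55.7 ± 2.81% in I/R+Rk2 (p = 0.1).

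**Figure D3:**
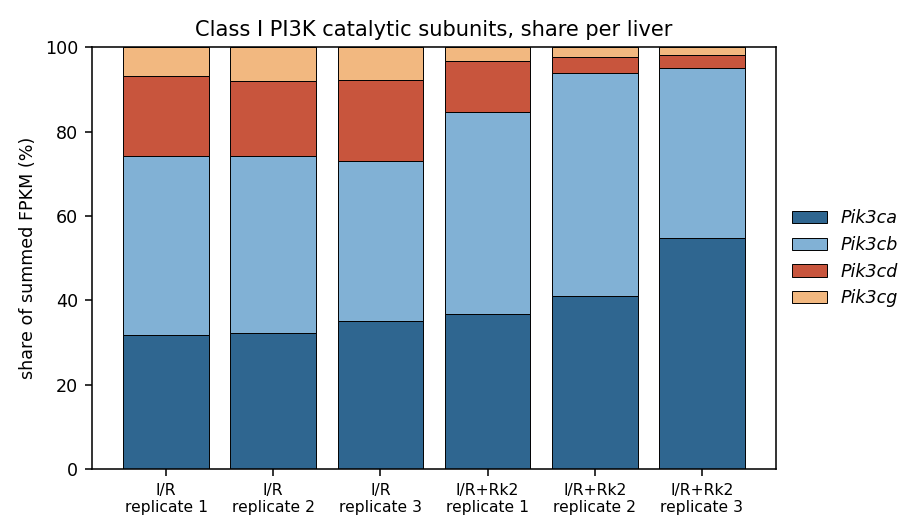
Share of each class I PI3K catalytic gene in their summed FPKM (vertical axis, percent, from 0 to 100) in each of the 6 livers. The 2 leukocyte subunits Pik3cd and Pik3cg make up 25.6% to 26.9% of each I/R bar and 4.79% to 15.4% of each I/R+Rk2 bar.

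The regulatory subunits did not move as one. Pik3r2, which encodes p85 beta, was at 11.2, 10.1 and 10.6 CPM in the 3 I/R livers and 16.0, 16.3 and 13.4 CPM in the 3 I/R+Rk2 livers. All I/R+Rk2 values exceeded the I/R values, and it rose by a log2 fold change of 0.52 ± 0.12 (SE), edgeR adjusted p = 0.0127. That call was lost with scaling by library size only (0.36, adjusted p = 0.108) and in the limma fits of FPKM. Pik3r1, which encodes p85 alpha and its shorter forms, was at 45.8 ± 2.67 CPM in I/R and 39.1 ± 9.17 in I/R+Rk2 (log2 fold change -0.23 ± 0.17, adjusted p = 0.302). It passed the threshold only when I/R+Rk2 replicate 1 was left out (-0.41, adjusted p = 0.0460) and in the limma fits of FPKM. The share of Pik3r2 in the summed FPKM of Pik3r1, Pik3r2 and Pik3r5 was 21.1 ± 2.60% in I/R and 38.3 ± 4.62% in I/R+Rk2. Pik3c3, the class III enzyme VPS34 of autophagy and endosomes, was at 13.7, 12.2 and 11.3 CPM in the 3 I/R livers and 11.3, 15.8 and 14.5 CPM in the 3 I/R+Rk2 livers. The groups overlapped (log2 fold change 0.17 ± 0.15, adjusted p = 0.406).

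AKT genes showed no called change. Akt1, the main isoform of many tissues and the protein on which the study centered, was at 56.4, 55.0 and 51.8 CPM in the 3 I/R livers and 50.8, 40.9 and 43.6 CPM in the 3 I/R+Rk2 livers. All 3 I/R+Rk2 values were below the I/R values, by a log2 fold change of -0.27 ± 0.10 (SE), edgeR adjusted p = 0.0679. The adjusted p missed the threshold and passed it without I/R+Rk2 replicate 1 (-0.37, adjusted p = 0.0161), with library size alone and in the limma fits of FPKM. Akt2, the isoform most tied to insulin action, was at 79.0, 85.7 and 52.4 CPM in the 3 I/R livers and 75.3, 73.4 and 47.5 CPM in the 3 I/R+Rk2 livers. Replicate 3 was lowest in both groups, and the groups overlapped (log2 fold change -0.14 ± 0.23 (SE), edgeR adjusted p = 0.641). Without I/R+Rk2 replicate 3 its log2 fold change was 0.045.

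Upstream of AKT, Pdpk1 fell. It encodes PDK1, the kinase of the AKT activation loop, and its level was 40.8, 39.4 and 39.3 CPM in the 3 I/R livers and 27.8, 29.5 and 32.3 CPM in the 3 I/R+Rk2 livers. The I/R libraries lay close together and above all I/R+Rk2 libraries. The log2 fold change was -0.42 ± 0.09 (SE), edgeR adjusted p = 0.00872. With the transcript length trend removed it was -0.13, adjusted p = 0.240. Among the AKT-related SGK kinases, Sgk3, which is recruited to endosomes, was at 9.80, 9.28 and 9.52 CPM in the 3 I/R livers and 4.20, 5.92 and 5.10 CPM in the 3 I/R+Rk2 livers. It showed no overlap and a log2 fold change of -0.91 ± 0.15 (SE), edgeR adjusted p = 0.00389. Sgk1, a kinase induced by hormones and stress, was at 39.1 ± 3.18 CPM in I/R and 43.0 ± 7.24 in I/R+Rk2 (log2 fold change 0.14 ± 0.13, adjusted p = 0.425).

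**Figure D4:**
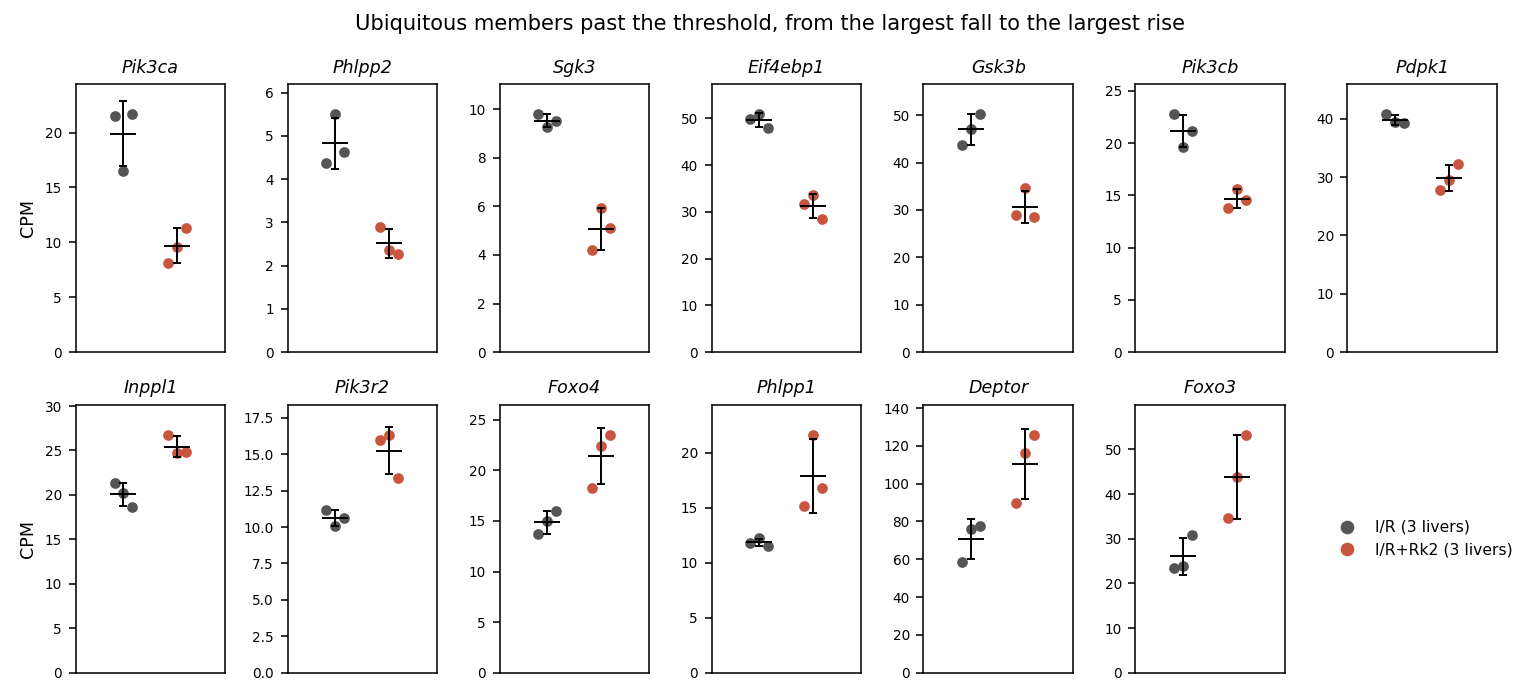
TMM-normalised counts (CPM, each panel with its own axis from 0) of the 13 ubiquitous members past the threshold, in 3 I/R and 3 I/R+Rk2 livers; points are libraries, and bars give the mean and SD. The groups do not overlap in any panel, and the panels run from Pik3ca (log2 fold change -1.04) to Foxo3 (0.75).

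The phosphatases of the route split by paralog. Phlpp1 and Phlpp2 encode PH domain phosphatases that remove the hydrophobic-motif phosphate of AKT. Phlpp2 was at 4.38, 5.50 and 4.62 CPM in the 3 I/R livers and 2.90, 2.37 and 2.27 CPM in the 3 I/R+Rk2 livers, without overlap, and fell by a log2 fold change of -0.94 ± 0.19 (SE), edgeR adjusted p = 0.00705. Phlpp1 was at 11.9 ± 0.348 CPM in I/R and 17.9 ± 3.36 in I/R+Rk2 and rose (0.60 ± 0.15, adjusted p = 0.0170), a call lost without I/R replicate 3 (0.57, adjusted p = 0.0564). Phlpp1 also lost its call with library size alone and in the limma fits of FPKM. Its share of the 2 genes' FPKM was 77.2 ± 2.36% in I/R and 90.8 ± 2.67% in I/R+Rk2. Inppl1, which encodes SHIP2, the widely expressed relative of SHIP1, was at 20.1 ± 1.34 CPM in I/R and 25.4 ± 1.14 in I/R+Rk2 and rose (0.34 ± 0.10, adjusted p = 0.0243). That call was the least stable of the 18, being lost in 4 of 6 fits that left out 1 library. These were the fits without I/R replicate 2 (0.35, adjusted p = 0.0597), I/R replicate 3 (0.29, adjusted p = 0.0955), I/R+Rk2 replicate 1 (0.30, adjusted p = 0.0501) and I/R+Rk2 replicate 2 (0.37, adjusted p = 0.0563). Inppl1 also lost its call with library size alone and in the limma fits of FPKM. Inpp5d made up 41.0 ± 3.53% in I/R and 13.3 ± 8.61% in I/R+Rk2 of the FPKM of both SHIP genes. Ppp2ca, a catalytic subunit of protein phosphatase 2A, was at 149 ± 4.43 CPM in I/R and 126 ± 8.98 in I/R+Rk2. Its adjusted p was just above 0.05 (log2 fold change -0.24 ± 0.08, adjusted p = 0.0510), and it passed without I/R+Rk2 replicate 1 (-0.30, adjusted p = 0.0316). Ppp2ca also passed with library size alone, with at least 10 counts in every library and in the limma fits of FPKM. With the transcript length trend removed its sign turned (0.038).

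Of 5 genes of the mTOR complexes, only Deptor passed the threshold. Mtor, the kinase shared by both complexes, was at 32.0, 35.2 and 33.3 CPM in the 3 I/R livers and 35.1, 35.3 and 32.1 CPM in the 3 I/R+Rk2 livers. The libraries of both groups covered nearly the same range, with a log2 fold change of 0.03 ± 0.09 (SE), edgeR adjusted p = 0.806. Deptor, which encodes an inhibitory partner of mTOR, was at 58.3, 76.1 and 77.7 CPM in the 3 I/R livers and 90.0, 116 and 126 CPM in the 3 I/R+Rk2 livers. Its I/R+Rk2 values all exceeded the I/R values (log2 fold change 0.64 ± 0.16 (SE), edgeR adjusted p = 0.0164). The call was lost without I/R replicate 1, the lowest library (0.53, adjusted p = 0.0507), without I/R+Rk2 replicate 2 (0.61, adjusted p = 0.0539) and in the limma fit of FPKM without a filter. Rictor, the scaffold of complex 2, was at 13.4 ± 3.07 CPM in I/R and 8.47 ± 2.60 in I/R+Rk2 (-0.65 ± 0.27, adjusted p = 0.0870). Rptor, the scaffold of complex 1, was at 25.6 ± 2.17 CPM in I/R and 28.4 ± 2.10 in I/R+Rk2 (0.15 ± 0.10, adjusted p = 0.287). Mlst8, a subunit of both, was at 6.00 ± 0.669 CPM in I/R and 4.95 ± 0.377 in I/R+Rk2 (-0.28 ± 0.15, adjusted p = 0.176).

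None of the 5 genes of the TSC and RHEB switch and its stress inputs passed the threshold. Tsc2, the part of the TSC complex that turns off RHEB, was at 26.6, 29.7 and 25.5 CPM in the 3 I/R livers and 35.8, 33.8 and 30.3 CPM in the 3 I/R+Rk2 livers. The I/R+Rk2 values lay just above the I/R values (log2 fold change 0.29 ± 0.10 (SE), edgeR adjusted p = 0.0582), and the gene passed without I/R+Rk2 replicate 3 (0.36, adjusted p = 0.0453). Its partner Tsc1 had a log2 fold change of 0.03 ± 0.12, adjusted p = 0.871. For Rheb, the small GTPase that activates complex 1, it was -0.10 ± 0.09, adjusted p = 0.423, and for Ddit4, the stress-induced inhibitor REDD1, -0.20 ± 0.15, adjusted p = 0.306. Sesn3, a sestrin that restrains complex 1 and a known FOXO target, was at 10.4, 15.7 and 15.5 CPM in the 3 I/R livers and 20.3, 28.5 and 6.51 CPM in the 3 I/R+Rk2 livers. I/R+Rk2 replicates 1 and 2 were the highest of all 6 libraries and replicate 3 the lowest (log2 fold change 0.43 ± 0.46 (SE), edgeR adjusted p = 0.487). Without I/R+Rk2 replicate 3 it was 0.82, adjusted p = 0.0360.

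Below mTOR complex 1, Eif4ebp1 fell. It encodes 4E-BP1, the translation repressor that complex 1 inactivates, and was at 49.9, 50.9 and 48.0 CPM in the 3 I/R livers and 31.6, 33.6 and 28.5 CPM in the 3 I/R+Rk2 livers. The replicates were tight, the groups did not overlap, and the log2 fold change was -0.67 ± 0.09 (SE), edgeR adjusted p = 0.00179. The call held under all 18 alternatives. Rps6kb1, which encodes the S6 kinase, was at 12.1 ± 1.44 CPM in I/R and 10.0 ± 0.247 in I/R+Rk2 (-0.27 ± 0.13, adjusted p = 0.116).

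Among the FOXO factors, which AKT holds in the cytoplasm, Foxo3 and Foxo4 rose and Foxo1 was not called. Foxo3 was at 23.5, 23.8 and 30.9 CPM in the 3 I/R livers and 34.5, 43.9 and 53.3 CPM in the 3 I/R+Rk2 livers. I/R replicate 3 came closest to the I/R+Rk2 values without reaching them (log2 fold change 0.75 ± 0.18 (SE), edgeR adjusted p = 0.0147). The call was lost without I/R replicate 1 (0.69, adjusted p = 0.0597), without I/R replicate 2 (0.69, adjusted p = 0.0501) and in the limma fits of FPKM. Foxo4 was at 14.9 ± 1.12 CPM in I/R and 21.4 ± 2.78 in I/R+Rk2 (0.52 ± 0.13, adjusted p = 0.0161), and its call was lost without I/R replicate 1 (0.48, adjusted p = 0.0577) and without I/R+Rk2 replicate 2 (0.49, adjusted p = 0.0581). Foxo4 also lost its call with library size alone and in the limma fits of FPKM. Foxo1, the factor of hepatic glucose production, was at 39.0, 29.0 and 29.5 CPM in the 3 I/R livers and 28.4, 35.8 and 37.3 CPM in the 3 I/R+Rk2 livers. The groups overlapped, with a log2 fold change of 0.06 ± 0.16 (SE), edgeR adjusted p = 0.778, and the sign turned negative in the limma fits of FPKM, with scaling by library size only and in 3 fits that left out 1 library. The FOXO core GTAAACA, held by 3.17% of RefSeq promoter windows and 3.54% of genes, was not found in the windows of Sesn3, Ddit4, Sgk1 or Foxo1. Of the 31 members with a window, 2 held it, Akt1 at 161 bases and Pik3cg at 92 bases before 1 of the 2 starts of each. The E-box CACGTG, in 6.02% of windows and 6.86% of genes, was found in 3 of the 31 members. Among Sesn3, Ddit4, Sgk1 and Foxo1 only Sgk1 held it, in 1 of its 6 windows.

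The GSK3 kinases, which AKT inhibits, differed in their calls. Gsk3b was at 43.7, 47.2 and 50.2 CPM in the 3 I/R livers and 28.9, 34.6 and 28.4 CPM in the 3 I/R+Rk2 livers, with all I/R+Rk2 values below the I/R values and a log2 fold change of -0.62 ± 0.11 (SE), edgeR adjusted p = 0.00449. With the transcript length trend removed it was -0.29, adjusted p = 0.0791. Gsk3a was at 59.3 ± 5.37 CPM in I/R and 53.2 ± 2.60 in I/R+Rk2 (-0.16 ± 0.09, adjusted p = 0.214), and its share of both genes' FPKM was 80.1 ± 2.54% in I/R and 85.1 ± 1.3% in I/R+Rk2.

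Ratios of FPKM between 9 pairs of related genes were compared within each library. The log2 ratio of Phlpp1 to Phlpp2 was 1.76 ± 0.19 in I/R and 3.34 ± 0.44 in I/R+Rk2, and that of Sgk1 to Sgk3 was 2.80 ± 0.23 in I/R and 3.95 ± 0.40 in I/R+Rk2. The log2 ratio of Pik3r1 to Pik3r2 was 1.68 ± 0.16 in I/R and 0.63 ± 0.25 in I/R+Rk2. For these 3 pairs and for Rictor to Rptor, Gsk3b to Gsk3a and Foxo1 to Foxo3 the groups did not overlap, giving the smallest exact two-sided p of 0.1 and 0.15 after adjustment over the 9 pairs. The log2 ratio of Akt1 to Akt2 was -0.16 ± 0.29 in I/R and -0.29 ± 0.42 in I/R+Rk2, with an exact p of 0.5.

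Levels per length gave the order of the members. In I/R the highest mean FPKM was that of Pik3ap1 (48.1), followed by Rheb (28.0 ± 3.06), Akt2 (27.6 ± 7.31), Gsk3a (26.8 ± 4.35), Eif4ebp1 (24.7 ± 1.91) and Akt1 (24.2 ± 2.86). The ranges of the last 5 over the I/R libraries overlapped. In I/R+Rk2 Rheb was highest at 23.4 ± 1.10 FPKM. At the low end Pik3cg and Phlpp2 were under 1 FPKM in every library.

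Transcript length moved with the fold changes across all genes. With genes split into 5 equal bins by their longest annotated transcript (GENCODE M21), the median log2 fold change of all genes was 0.25 in the shortest bin and then 0.11, -0.03, -0.15 and -0.26. The members were long, with a median of 5701 bases against 3063 for all tested genes, and 19 of 36 fell in the longest bin. In that bin 9.99% of all genes were called higher and 33.6% lower, while 3 of the 19 members rose and 6 fell. Foxo3, Deptor and Phlpp1 rose although they belong to the longest bin. Removing the trend brought in Mtor (0.36, adjusted p = 0.0346), Rptor, Tsc2 and Foxo1 as higher, and Pdpk1, Pik3cb and Gsk3b were no longer past the threshold. The 5 leukocyte isoforms stayed past it. The part of length in the ubiquitous members' changes was not otherwise tested.

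**Figure D5:**
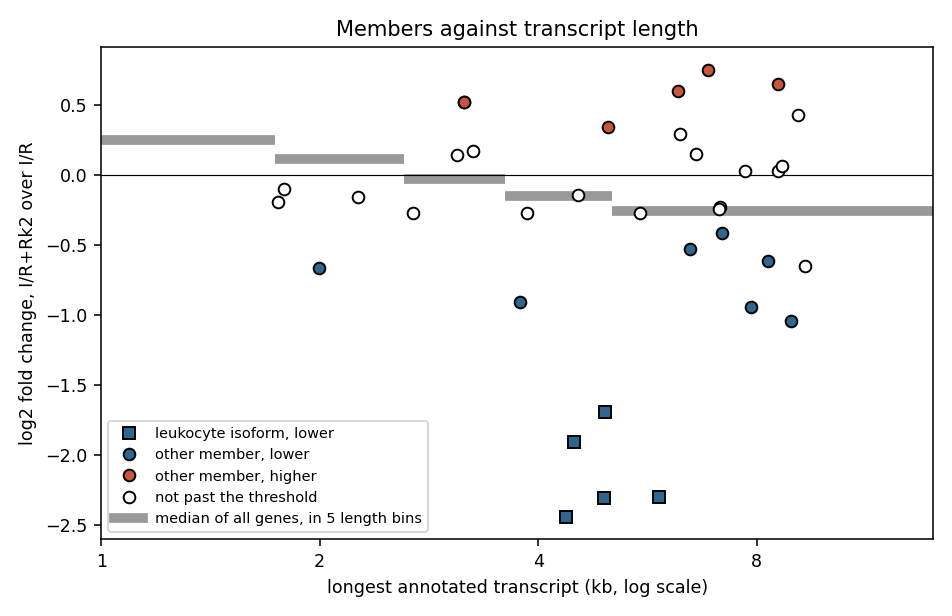
Log2 fold change of I/R+Rk2 over I/R for the 36 members against the length of the longest annotated transcript (kilobases, log scale), with grey bars for the median of all tested genes in each of 5 length bins. The grey bars step down from 0.25 to -0.26, and the 5 leukocyte isoforms (squares) lie at -1.69 or below.

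Some members share exonic bases with a gene on the opposite strand, and the strand setting of the counting is not given in the sources used here, so reads of both cannot be told apart. In GENCODE M21 this holds for Deptor with Gm9920, Foxo1 with Gm20402, Gsk3a with 9130221H12Rik, Inppl1 with Gm10602 and Phox2a, Mlst8 with Bricd5, and Pik3r2 with 6330537M06Rik. It also holds for Ppp2ca with 9430098F02Rik, Rps6kb1 with Rnft1, Rptor with Rptoros and Tsc2 with Pkd1. The longest shared stretch of called members was 914 bases, between Inppl1 and Gm10602.

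Other genes of the route were taken from a wider list of 77. Of these 75 were in the count table and 71 were tested, with 12 higher, 15 lower (38.0% called, against 43.9% of all genes) and a median log2 fold change of -0.01. Leaving out I/R replicate 3 left 6 rises, as did leaving out I/R+Rk2 replicate 2, and omitting I/R replicate 2 left 7. There were 5 with scaling by library size only, while the falls ranged from 11 to 19 over the alternatives. The smallest p-values among the rises belonged to Lamtor4, a subunit of the lysosomal Ragulator scaffold (0.66 ± 0.08, adjusted p = 0.00142), Pdcd4, a translation inhibitor degraded after S6 kinase signaling (0.99 ± 0.13, adjusted p = 0.00146), and Sesn1, a sestrin (0.78 ± 0.12, adjusted p = 0.00300). Pdcd4 was at 49.4 ± 5.05 against 98.1 ± 12.7 CPM. Among the falls they belonged to the leucine-sensing sestrin Sesn2 (-1.28 ± 0.13, adjusted p = 0.000753), the protein phosphatase 2A subunit Ppp2cb (-0.78 ± 0.09, adjusted p = 0.00108) and Tfe3, a lysosomal transcription factor held back by complex 1 (-0.90 ± 0.11, adjusted p = 0.00120). Sesn2 was at 17.8 ± 1.48 against 7.33 ± 0.868 CPM.

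Of 24 tested genes that sense amino acids or energy upstream of mTOR complex 1, 8 rose and 5 fell. That is 54.2% called, against 43.9% of all genes (20.3% higher and 23.7% lower). The rises held 4 of the 5 Ragulator genes (Lamtor1, Lamtor2, Lamtor4 and Lamtor5), Nprl2 and Depdc5 of the inhibitory GATOR1 complex, Wdr24 of GATOR2, and Sesn1. Lamtor1, Lamtor2 and Lamtor5 rose by only 0.27, 0.29 and 0.31 (edgeR adjusted p = 0.0310, 0.0499 and 0.0460). The remaining Ragulator gene, Lamtor3, had the other sign and was not called (-0.56 ± 0.30, adjusted p = 0.172). The falls held Mios and Seh1l of GATOR2, the Rag GTPase Rragd, the folliculin partner Fnip2, and Sesn2. Of 8 further PI3K subunits and adaptors, the class II gene Pik3c2b rose and Pik3c2a and Pik3r6 fell. Pik3r6, the other regulatory partner of p110 gamma, was at 0.911 ± 0.384 against 0.140 ± 0.124 CPM (-2.62 ± 0.72, adjusted p = 0.0239). In the I/R+Rk2 libraries 3 counts made 0.0888 to 0.184 CPM, so that mean was at the floor. Pik3r6 met the filter on low counts through I/R only, and the size of its fall is uncertain. Of 8 genes of the AKT family and its modulators, Bad and Tbc1d4 rose and Tbc1d1 fell. Of 6 mTOR complex partners, Prr5l fell. Of 10 further effectors of complex 1, only Pdcd4 and Tfe3 were called. Of 10 tested phosphatase genes, Ppp2cb and Ppp2r2a fell. Of 5 tested FOXO family genes and regulators, Stk4, Usp7 and Ywhaz fell. The genes outside the 3 smallest p-values of each direction were named after their values were seen.

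Endothelial markers split as well, while the called stellate and cholangiocyte markers all fell. Of 10 endothelial genes Clec4g, Kdr, Oit3 and Tek rose and Cdh5, Egfl7, Lyve1 and Pecam1 fell. Of 10 stellate genes Dcn, Ecm1, Hgf and Pdgfrb fell, and of 6 cholangiocyte genes Cldn7, Epcam and Spp1 fell. The share called was 80% for endothelial, 40% for stellate and 50% for cholangiocyte genes, against 43.9% of all genes. By sign alone, 3 of the 10 stellate and 2 of the 6 cholangiocyte genes had a log2 fold change above 0. Their summed levels were 218 to 231 CPM in I/R and 179.9 to 221 in I/R+Rk2 for endothelial genes, 235 to 284 CPM in I/R and 178 to 233 in I/R+Rk2 for stellate genes and 167 to 232 CPM in I/R and 84.4 to 118 in I/R+Rk2 for cholangiocyte genes. Most of the cholangiocyte sum was Spp1 alone, at 162 ± 29.7 CPM in I/R and 70.5 ± 14.1 in I/R+Rk2. The part of these cell types in the changes of the ubiquitous members was not tested.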

How the data were processed

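RNA had been extracted from 6 livers with TRIzol, and libraries were made from 250 ng of RNA each. Per the submitters' processing notes and the methods of the study, the authors checked reads with FastQC 0.11.5, aligned them to mm10 with HISAT2 2.2.1 and assembled expression values with StringTie 1.3.3. The annotation and the strand setting are not given in the sources used here. The authors deposited whole-number counts per gene, which were used as they stand, and FPKM per gene, which the authors had normalized for length and depth. Samples were grouped by the titles and the treatment in the labels. Every column matched a sample by name, and a table column holding the row total was not used.

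Counts were tested with edgeR 4.0.16 in R 4.3.3 (filterByExpr, TMM factors of 0.914 to 1.14, glmQLFit and glmQLFTest) on 12411 genes, with Benjamini-Hochberg adjustment and a threshold of 0.05. The floor of 3 counts in a library was 0.0888 to 0.184 CPM, for counting error only. Shares and ratios of FPKM were compared by exact two-sided permutation tests over the 6 libraries. Alternatives were DESeq2 1.42.0, limma 3.58.1 on log2(FPKM + 1) or log2(FPKM + 0.1), for genes averaging 1 FPKM or more, or unfiltered, other scalings and filters, a transcript length offset, a replicate block and leaving out each library. Scripts were tested on simulated data. There edgeR called 88.7% of 4-fold and 49% of 2-fold changes, and 6.9% of its calls were false. DESeq2 called 90.7% and 70% of them, and 21.4% of its calls were false. Whether these rates hold for the liver libraries was not tested. No 2 libraries of a group agreed within sampling noise.

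The members, the wider pathway list and the marker lists for leukocytes, monocytes, neutrophils, Kupffer, T and NK, B, endothelial, stellate and cholangiocyte cells and hepatocytes were chosen with earlier results of these data known. All 36 members were named. Values per library were given for the leukocyte isoforms, Akt1, Akt2, Pdpk1, Mtor, Foxo1, Gsk3b, members past the threshold by over 2-fold and the member with the smallest p in each role, with Sesn3 added after its values were seen. Of the wider list, the 3 smallest p-values in each direction were named, and of each marker list up to 3 genes of the highest CPM. Other marker genes, and the sum without Fn1, were given after their values were seen. These were genes not called with their list or called against it, genes at 0 and Ptprc. They also include the called endothelial, stellate and cholangiocyte genes.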

Additional observations from a re-analysis of the deposited data

How the results depend on the processing

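Of the 18 members past the threshold, 7 stayed past it under every alternative in which they were tested (Pik3cd, Pik3cg, Pik3r5, Pik3ap1, Inpp5d, Eif4ebp1 and Sgk3), and 13 in all 6 fits that left out 1 library. Of the 18 not past it, 9 passed under no alternative. The count of rises, 6, became 2 with library size alone, 1 in limma with log2(FPKM + 1) and with log2(FPKM + 0.1), 0 in limma without a filter, and 10 with the length trend removed. It ranged from 3 to 8 when 1 library was left out, the lowest being reached in the fits lacking I/R replicate 1 or I/R+Rk2 replicate 2. Library size alone moved the median of all genes to -0.17, and calls over all genes from 2516 higher of 5454 to 1320 higher of 4801. Members over 2-fold numbered 3 in each of the 3 limma fits instead of 6. Leukocyte isoforms past the threshold numbered 3 instead of 5 with at least 10 counts in every library and in both filtered limma fits, where the rest were not tested. Rises among the other pathway genes, 12, became 5 with library size alone and in both filtered limma fits, 4 in limma without a filter and 6 to 12 when 1 library was left out. The fall in the joint share of Pik3cd and Pik3cg ranged from -20.7 to -15.4 points when 1 library was left out.

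The labels do not say that a number pairs livers. Over all genes, deviations of same-numbered libraries correlated at -0.056, 0.005 and -0.058, and no I/R library correlated best with its own number. With 3 libraries a group these correlations cannot exclude a pairing. With the replicate block, 18 members stayed past the threshold, 6 higher and 12 lower, the other pathway genes numbered 21 instead of 27 (7 higher instead of 12), and all genes 4713 instead of 5454. With block and length trend removal together, 15 members were past it.

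Signs turned in 10 members not past the threshold. With library size alone log2 fold changes were -0.00017 for Pik3c3, -0.13 for Mtor, -0.017 for Rptor, -0.13 for Tsc1, -0.12 for Foxo1 and -0.024 for Sgk1. With log2(FPKM + 1), with and without the filter, they were -0.0024 for Pik3c3, -0.34 for Mtor, -0.32 for Rptor, -0.037 for Tsc1, -0.086 for Sesn3 and -0.079 for Foxo1. With log2(FPKM + 0.1) they were -0.0028, -0.39, -0.37, -0.049, -0.18 and -0.095 for the same genes. With the length trend removed they were 0.021 for Akt2, 0.059 for Pik3r1 and 0.038 for Ppp2ca, and with the block added 0.019, 0.029 and 0.035. Leaving out 1 library gave ranges of -0.33 to 0.045 for Akt2, -0.046 to 0.11 for Tsc1, -0.032 to 0.82 for Sesn3, -0.015 to 0.22 for Foxo1 and -0.0058 to 0.21 for Sgk1. The causes were not tested.

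For the ratios of paralogs, 2 alternatives were chosen after seeing the data, CPM in place of FPKM and leaving out 1 library. With CPM the log2 difference for Pik3ca to Pik3cb turned from 0.21 to -0.51, and the difference in Pik3ca's catalytic share, also tried after seeing the data, from 11.2 to -2.27 points. Leaving out 1 library gave ranges of -0.36 to 0.056 for Akt1 to Akt2, -0.062 to 0.35 for Pik3ca to Pik3cb and -0.38 to 0.0023 for Tsc1 to Tsc2. Among the 36 members depth limits Pik3cg and Pik3r5 most, since single I/R+Rk2 libraries held 9 and 7 of their counts. With 3 livers a group, a p above the threshold does not show that levels were equal.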
